A study of Oncorhynchus mykiss with 9 samples.

Results

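RNA helicases of the DEAD box (DDX) and DEAH box (DHX) families were followed in splenic IgM+ B cells of rainbow trout (Oncorhynchus mykiss) after stimulation with a thymus-dependent or a thymus-independent antigen. Genes were included when their description in the count table contained "RNA helicase" or a DDX or DHX name followed by a digit, and when at least 1 library held 5 or more reads. This rule used no difference between groups, but it was chosen with earlier results of these data known. The shares set against all genes below are therefore not those of a blind choice. The rule gave 113 genes of the 31691 genes kept by the same read minimum. Another 13 genes had a matching description but stayed under 5 reads in every library, 9 of them at 0 reads and the others at 3 reads at most.

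DEAD and DEAH box proteins bind RNA and use ATP to separate short duplexes or to strip proteins from RNA. Many of them work in the nucleolus, where ribosomal RNA is cut, folded and joined to ribosomal proteins. Others drive the rearrangements of the spliceosome, load mRNA for export, open the leader of an mRNA for the scanning ribosome, or bind viral RNA in the cytoplasm. A resting lymphocyte makes few ribosomes, and activation of B cells is accompanied by growth of the cell and of its nucleolus.

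Healthy female trout of 50 to 70 g provided the spleens. Leukocyte cultures were left unstimulated (control) or received the hapten trinitrophenyl coupled either to keyhole limpet hemocyanin (TNP-KLH), a thymus-dependent antigen, or to lipopolysaccharide (TNP-LPS), a thymus-independent one. Both antigens were present for 24 h at the same concentration, and IgM+ B cells were then isolated by flow cytometry. The antigens therefore acted on mixed splenic leukocytes, and the purified B cells were sequenced with 3 libraries per group. The labels call these biological replicates without naming the fish behind each, so the p-values measure the spread between these libraries.

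The 9 libraries held 8080787 to 12164154 reads assigned to genes, and levels are given below as CPM, the reads of a gene scaled to a common library total that was corrected for composition with the trimmed mean of M values (TMM). The sort was checked against marker lists. Genes of the B cell list (35 genes, among them IgM heavy chain, CD79 and CD22) took 0.173 to 0.217% of reads in control libraries, 0.146 to 0.172% with TNP-KLH and 0.0612 to 0.0734% with TNP-LPS, and 5 of the 35 were lower with TNP-LPS at an adjusted p under 0.05 (10 with the replicate number as a block). Gene by gene, 22 of the 35 had a positive log2 fold change with TNP-KLH (median 0.13), and 28 had a negative one with TNP-LPS (median −0.50). T cell markers (5 genes) took 0.000329 to 0.00573% of reads in control and 0.000199 to 0.000971% with TNP-LPS, and monocyte and macrophage markers (3 genes) took at most 0.00263% in any library. Thrombocyte markers (5 genes) took 0.0033 to 0.0154% in control, 0.0021 to 0.00502% with TNP-KLH and 0.00176 to 0.00248% with TNP-LPS. All 5 had negative log2 fold changes with TNP-LPS (median −2.77), and 2 were lower at an adjusted p under 0.05 (3 with the block). Hemoglobin reads, which mark erythrocytes, reached 0.703% in control replicate 2 and 0.228% in TNP-KLH replicate 2, against 0.00282 to 0.0366% in the other 7 libraries. All 19 hemoglobin genes had negative log2 fold changes with TNP-LPS (median −3.44). None passed without the block, where 2 had an unadjusted p under 0.05 and DESeq2 called 1, and 19 passed with it. The part of these markers in the results was not tested. Counts for TNP-LPS against control are also given without the 3 libraries numbered 2, and with those left out 0 genes of any kind passed in the other comparisons.

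Summed together, the helicases took a larger share of all reads in stimulated cells. The 113 genes held 0.520, 0.521 and 0.492% of reads in the 3 control libraries. With TNP-KLH they held 0.786, 0.763 and 0.772%, and with TNP-LPS 0.981, 1.06 and 1.00%. The ranges of the 3 groups did not overlap, and the order was control, TNP-KLH, TNP-LPS. Abundant families weigh heavily in these sums. The 5 DDX5 genes together had means of 884, 1944 and 2854 CPM in control, TNP-KLH and TNP-LPS cells. The 3 nucleolar RNA helicase 2 genes had 721, 844 and 1622 CPM. With TNP-LPS, 87 of the 113 genes had a positive log2 fold change and 26 a negative one, against 14437 and 17213 of all 31691 genes. In a sorted population, more cells of an activated kind and more of an RNA in each cell cannot be told apart.

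TNP-LPS raised the transcripts of many helicase genes. In edgeR's quasi-likelihood F test, with p-values adjusted after Benjamini and Hochberg over all genes kept, 44 of 113 were higher than in control cells and 6 were lower at an adjusted p under 0.05. Of all genes tested, 10.04% were higher and 6.73% were lower by the same rule. Among the helicases 38.9% were higher and 5.31% lower. Their median log2 fold change was 0.78, while the median over all genes was −0.09.

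With TNP-KLH fewer helicases passed. In the same test 10 rose and 1 fell, 8.85% and 0.885% of the 113, where 0.760% of all genes were higher and 0.117% were lower. The median log2 fold change of the helicases was 0.37. With the replicate number as a block, 32 rose (28.3%) and 5 fell (4.42%), against 6.05% and 4.23% of all genes. The share that fell thus lay near that of all genes. The calls without the block were fragile: with any single library left out, 0 helicases passed in either direction (and at most 1 of all genes), except that 13 rose and 2 fell without TNP-LPS replicate 1. With the block and 1 replicate number left out, a setting chosen after seeing the data, helicases also passed (counts in the last section). No shares of all genes are given for that setting. DESeq2 gave 25 higher and 3 lower (3.11% and 1.33% of all genes), and 38 and 5 had an unadjusted p under 0.05 in edgeR (6.90% and 5.70% of all genes). In 42 helicases every TNP-KLH library exceeded every control library and in 7 every one was below, against 9.67% and 8.72% of all genes.

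Set directly against TNP-KLH, TNP-LPS gave higher levels of 14 helicases and lower levels of 0. These were 12.4% of the helicases, where 2.12% of all genes were higher and 0.745% lower. With the block, 37 were higher and 7 lower (8.49% and 5.94% of all genes), DESeq2 gave 30 and 3 (5.001% and 2.29% of all genes), and 43 and 6 had an unadjusted p under 0.05 (9.85% and 5.56% of all genes). With the block, the 6.19% of helicases that were lower lay near the 5.94% of all genes. Here too the calls without the block were fragile. With the block and 1 replicate number left out helicases also passed (counts in the last section), with no share of all genes given. Without the block, the count of higher helicases was 0 when a TNP-KLH library, TNP-LPS replicate 1 or TNP-LPS replicate 2 was left out. It was 3 and 6 after leaving out control replicates 1 and 3, 7 after leaving out TNP-LPS replicate 3, and 14 after leaving out control replicate 2. Over all genes kept, leaving out 1 library gave 0 to 576 higher and 0 to 272 lower. The cause was not tested. In 47 helicases every TNP-LPS library exceeded every TNP-KLH library and in 7 every one was below, against 14.01% and 9.36% of all genes. Both antigen comparisons and the direct one share libraries, so their values are given side by side and are not independent.

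**Figure D1:**
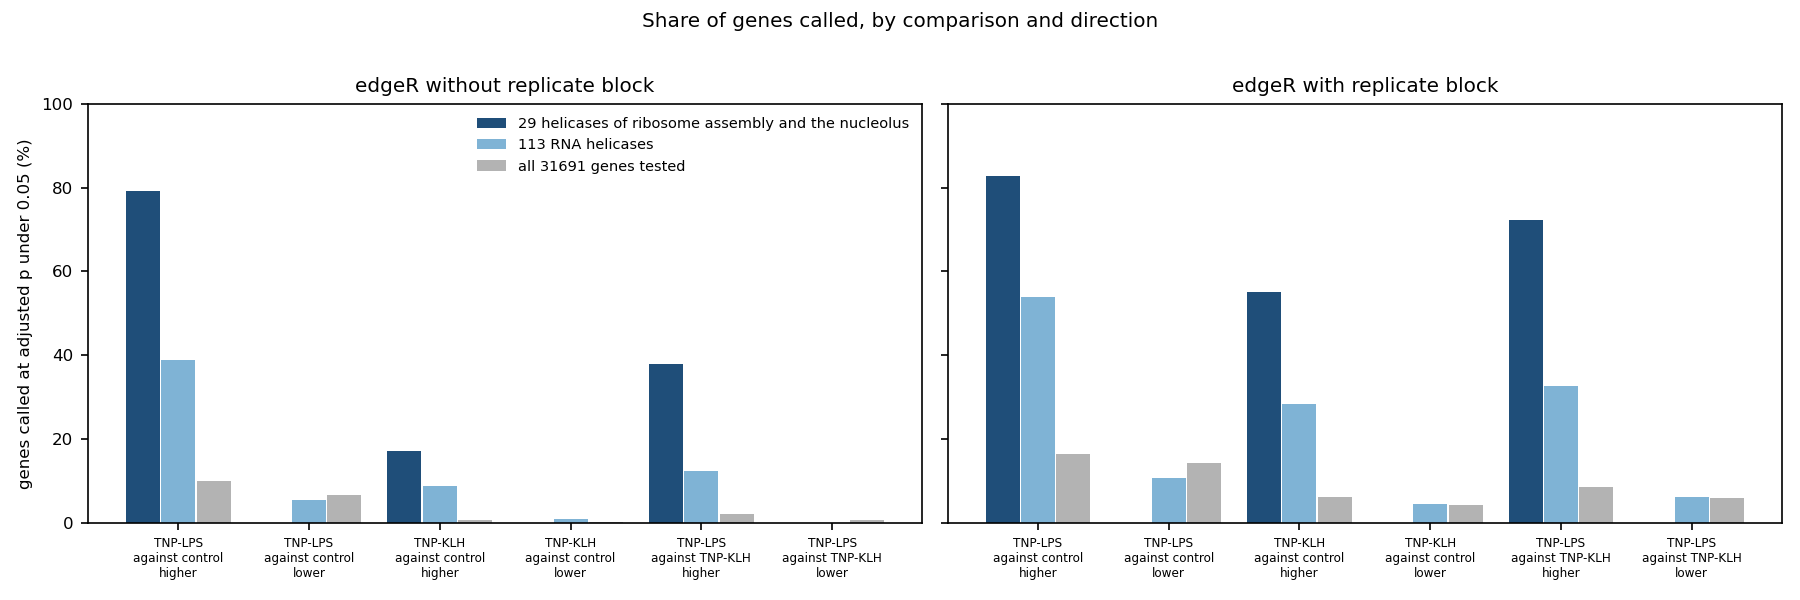
Percentage of genes with an adjusted p under 0.05 in edgeR, by comparison and direction, without (left) and with (right) the replicate number as a block. Dark bars are the 29 helicases of ribosome assembly and the nucleolus, light bars all 113 helicases and grey bars all 31691 genes tested. In the comparison of TNP-LPS with control, the bar of all helicases reaches 38.9% for higher genes, above the 10.04% of all genes.

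The calls for TNP-LPS against control were steadier. Of the 44 higher genes, 41 passed without each of the 9 libraries in turn, as did 5 of the 6 lower ones, and all 50 passed with the block and in DESeq2. With the block 61 were higher and 12 lower (16.3% and 14.2% of all genes), and DESeq2 gave 52 and 8 (12.1% and 9.06%). Without the 3 libraries numbered 2, 34 higher and 2 lower genes passed, where 5.50% of all genes were higher and 2.39% lower. Without any test, 61 of 113 helicases had every TNP-LPS library above every control library and 16 had every one below, against 17.4% and 15.2% of all genes.

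Sorted by role, a rise was frequent among helicases of ribosome assembly. Of 29 genes in the nucleolar groups (large subunit, small subunit and other nucleolar helicases), 23 rose with TNP-LPS and 0 fell in edgeR, with 0 lower also in DESeq2 and at an unadjusted p under 0.05. The 23 were 79.3% of the group, beside 10.04% of all genes. With the block 24 rose, where 16.3% of all genes did. In 24 of the 29 every TNP-LPS library exceeded every control library, against 17.4% of all genes. In 1, among the other nucleolar helicases, every TNP-LPS library lay below every control library, against 15.2% of all genes. The median log2 fold change of the 29 was 1.71. Without the 3 libraries numbered 2, 18 passed. With TNP-KLH 5 rose (16 with the block), where 0.760% of all genes did (6.05% with the block). TNP-LPS exceeded TNP-KLH for 11 (21 with the block), where 2.12% of all genes were higher (8.49% with the block). The same shares of all genes apply to the counts of each role.

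**Figure D2:**
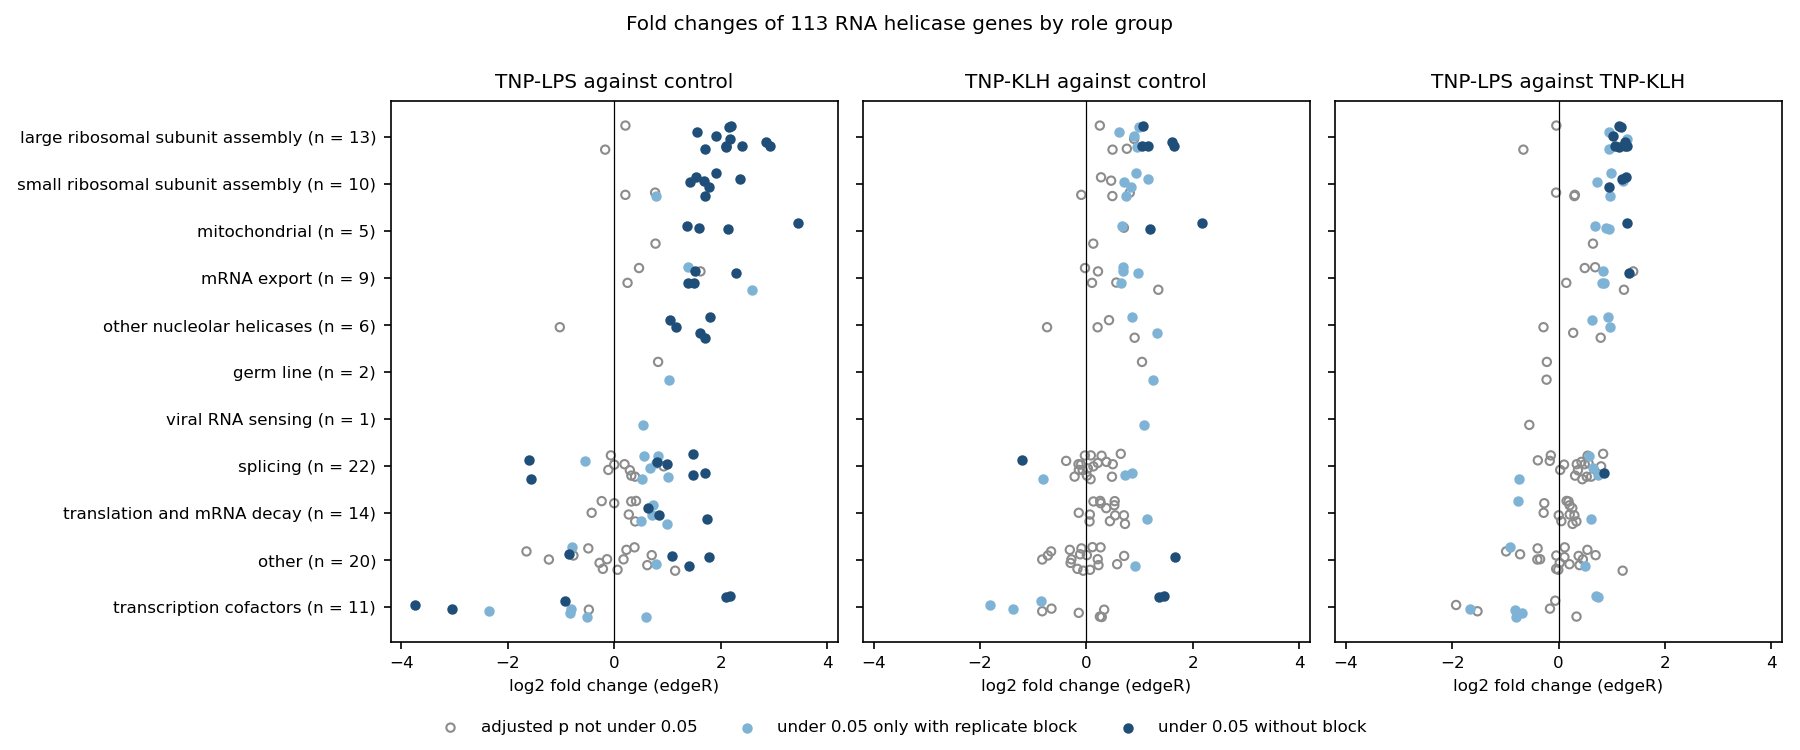
Log2 fold change of each of the 113 helicase genes in the 3 comparisons, grouped by role, with positive values where the first-named group is higher. Dark points passed an adjusted p of 0.05 in edgeR, light points passed only with the replicate number as a block, and open circles passed neither. In the comparison of TNP-LPS with control, 11 of 13 genes of large subunit assembly are dark and lie to the right of 0.

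Among the 13 genes assigned to the large ribosomal subunit, 11 rose with TNP-LPS (84.6%, beside 10.04% of all genes), 5 with TNP-KLH (9 with the block), and 8 were higher under TNP-LPS than under TNP-KLH (11 with the block). The median log2 fold change was 2.09 for TNP-LPS and 0.96 for TNP-KLH. The 11 passed with TNP-LPS without each single library and also without the 3 libraries numbered 2.

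DDX27 processes the ribosomal RNA precursor of the large subunit. The gene GSONMG00001884001, described as DDX27, stood at 19.2, 21.3 and 19.4 CPM in control cells, at 52.9, 62.1 and 67.1 CPM with TNP-KLH and at 158, 144 and 134 CPM with TNP-LPS. No library of one group reached the range of another. Mean CPM was 3.04 times the control level with TNP-KLH and 7.26 times with TNP-LPS. The log2 fold change was 1.60 (adjusted p = 0.0259, SE 0.19) for TNP-KLH, 2.86 (adjusted p = 2.34e-04, SE 0.20) for TNP-LPS and 1.26 (adjusted p = 0.0235, SE 0.19) between the antigens.

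A neighbouring identifier, GSONMG00001885001, carries the same description. Its level was 7.08, 3.97 and 8.09 CPM in control, 19.7, 21.7 and 18.4 CPM with TNP-KLH and 57.6, 51.1 and 38.0 CPM with TNP-LPS. It moved as its neighbour did, with log2 fold changes of 1.64 (SE 0.28) and 2.93 (SE 0.29) against control. Whether consecutive identifiers of this kind are separate genes or pieces of one gene model was not tested. In all, 24 of the 113 genes have a consecutive identifier with the same family name.

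DDX18, DDX55 and DDX56, whose budding yeast counterparts act on pre-60S particles, also passed in all 3 comparisons. Their calls with TNP-KLH, like those of every helicase, were lost without any single library other than TNP-LPS replicate 1. Their calls between the antigens were lost without any single TNP-KLH library, TNP-LPS replicate 1 or TNP-LPS replicate 2. DDX18 (GSONMG00070951001) was at 106, 121 and 109 CPM in control, 234, 262 and 205 CPM with TNP-KLH and 601, 493 and 440.3 CPM with TNP-LPS. The lowest TNP-LPS library lay above the highest TNP-KLH library, and the lowest TNP-KLH library above every control. DDX56 (GSONMG00046754001) rose from 28.7, 22.9 and 29.2 CPM to 66.6, 59.3 and 54.7 CPM with TNP-KLH and to 153, 146 and 131 CPM with TNP-LPS. Its log2 fold changes against control were 1.16 (adjusted p = 0.0389, SE 0.19) and 2.41 (adjusted p = 2.34e-04, SE 0.20). One DDX55 gene (GSONMG00045711001) had log2 fold changes of 1.04 (adjusted p = 0.0414, SE 0.19) and 2.09 (adjusted p = 2.34e-04, SE 0.19).

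DDX54 and DDX24 act on the same precursor particles. DDX54 (GSONMG00068441001) was at 110.3, 112 and 94.9 CPM in control, 204, 228 and 184 CPM with TNP-KLH and 535, 430.4 and 388 CPM with TNP-LPS. The groups did not overlap, and the log2 fold change with TNP-LPS was 2.09 (adjusted p = 2.75e-04, SE 0.21). With TNP-KLH it was 0.96 (SE 0.20), which missed the threshold without the block (adjusted p = 0.0641) and passed with it (0.00233). DDX24 (GSONMG00012666001) had mean levels of 51.0 ± 4.95, 101 ± 17.6 and 228 ± 64.1 CPM (SD, n = 3) in control, TNP-KLH and TNP-LPS cells. The last of these had the widest spread, from 158 to 283 CPM.

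The other 4 large subunit genes that rose were both DDX31 genes, DDX51 and a further DDX55 gene, with log2 fold changes of 1.56 to 2.18 for TNP-LPS. The 2 genes of the 13 that did not pass were further DDX54 entries. Both had low levels, under 10 CPM in every library, with log2 fold changes of −0.17 (SE 0.57) and 0.21 (SE 0.39) with TNP-LPS. Reads of near-identical copies may have been divided or dropped in counting, so the split between copies of one name is uncertain throughout.

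**Figure D3:**
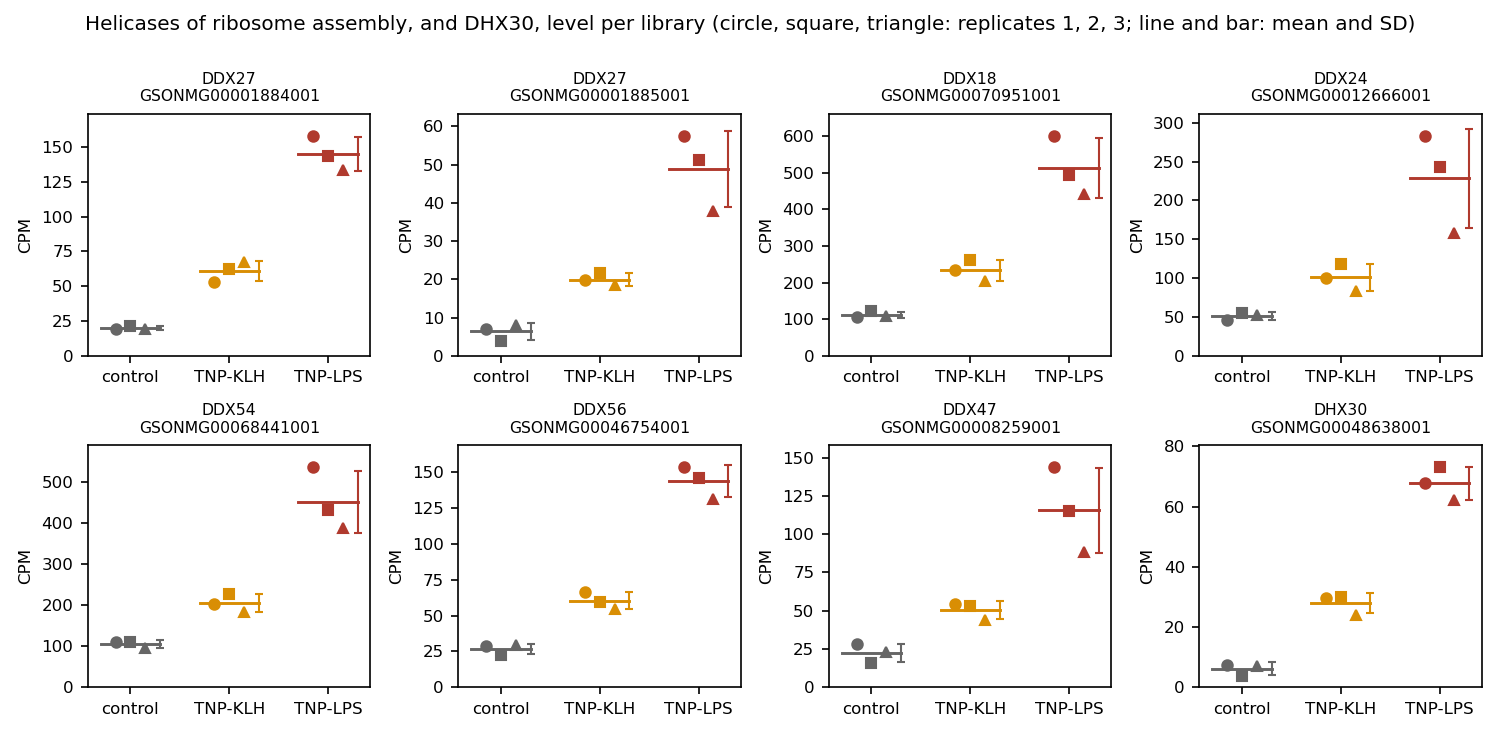
CPM per library of 7 genes of ribosome assembly and of DHX30, with replicates 1, 2 and 3 as circles, squares and triangles, the mean of 3 as a line and the SD as a bar; each axis starts at 0. In every panel the TNP-LPS libraries lie above the TNP-KLH libraries, and these above the control libraries.

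In the small subunit group 7 of 10 genes rose with TNP-LPS (8 with the block, and 6 without the 3 libraries numbered 2) and 0 fell, also in DESeq2 and at an unadjusted p under 0.05, beside 10.04% of all genes higher and 6.73% lower. The group holds DDX47, DDX49, DDX52, DDX10 and DHX37, which serve the processome that forms around the nascent ribosomal RNA. DDX47 (GSONMG00008259001) went from 28.2, 16.0 and 23.1 CPM in control to 54.3, 53.1 and 43.7 CPM with TNP-KLH and 144, 115 and 88.1 CPM with TNP-LPS. The groups were separate, with a log2 fold change of 2.36 (adjusted p = 5.04e-04, SE 0.28) for TNP-LPS. DHX37 (GSONMG00004279001), which frees a small nucleolar RNA from the particle in yeast, rose by 1.78 (adjusted p = 6.33e-04, SE 0.22). DDX49 (GSONMG00081278001) rose by 1.91 (adjusted p = 0.00102, SE 0.26).

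TNP-KLH alone gave 0 calls in the small subunit group without the block and 5 with it. In edgeR 5 of the 10 had an unadjusted p under 0.05, and DESeq2 called 3. For DDX47 the change with TNP-KLH was 1.17 on the log2 scale (SE 0.27, adjusted p = 0.0795, or 0.00133 with the block). One DDX52 gene (GSONMG00059329001) did not follow the stepwise pattern. It was at 5.66, 8.46 and 6.92 CPM in control and 9.27, 7.19 and 9.05 CPM with TNP-KLH, which overlap, but at 25.3, 18.8 and 17.5 CPM with TNP-LPS. Its difference between the antigens was 1.27 (adjusted p = 0.03, SE 0.24).

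Of 6 other nucleolar genes, 5 rose with TNP-LPS (83.3%, beside 10.04% of all genes). These were all 3 genes described as nucleolar RNA helicase 2, the product of DDX21 in mammals, which links transcription of ribosomal DNA to processing of its RNA, and 2 of 3 DHX33 genes, which act in ribosomal DNA transcription. The nucleolar RNA helicase 2 gene with the most reads (GSONMG00038332001) was at 742, 492 and 835 CPM in control, 778, 788 and 829.9 CPM with TNP-KLH and 1945, 1444 and 1270.4 CPM with TNP-LPS. Control and TNP-KLH overlapped and TNP-LPS lay above both. The log2 fold change was 1.17 (adjusted p = 0.00957, SE 0.25) for TNP-LPS and 0.21 (adjusted p = 0.808, SE 0.24) for TNP-KLH. The difference between the antigens was 0.96 (SE 0.24), with an adjusted p of 0.0726 that fell to 0.00678 with the block. Another copy (GSONMG00006704001) lost its call without TNP-LPS replicate 2, control replicate 1 or control replicate 2, with an adjusted p of up to 0.0855. Of the 5 genes, 1 passed without the 3 libraries numbered 2.

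Helicases of mitochondria rose as well. Of 5 genes, 4 were higher with TNP-LPS, also without the 3 libraries numbered 2, and 2 with TNP-KLH (3 with the block), where 10.04% and 0.760% of all genes were higher. DHX30, which in human cells takes part in assembly of the mitochondrial ribosome, had the largest rise of the 113 genes in both antigen comparisons. Its gene (GSONMG00048638001) was at 7.58, 3.66 and 7.16 CPM in control, 29.6, 30.0 and 24.1 CPM with TNP-KLH and 67.7, 73.1 and 62.4 CPM with TNP-LPS. The 3 groups were far apart, at 4.55 and 11.04 times the control mean. The log2 fold changes were 2.18 (adjusted p = 0.0259, SE 0.28) and 3.46 (adjusted p = 2.34e-04, SE 0.29). SUPV3L1, which unwinds mitochondrial RNA for degradation, rose in both of its copies with TNP-LPS. The copy GSONMG00070105001 had log2 fold changes of 1.19 (adjusted p = 0.0485, SE 0.23) for TNP-KLH and 2.14 (adjusted p = 3.60e-04, SE 0.23) for TNP-LPS. DDX28, another helicase of the mitochondrial ribosome, rose in 1 of its 2 copies (GSONMG00077929001, 1.60, SE 0.26, adjusted p = 0.00236).

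Export helicases followed the antigens in part. Of 9 genes, 4 rose with TNP-LPS (6 with the block), 44.4% beside 10.04% of all genes, and 4 passed without the 3 libraries numbered 2. They were 3 of 4 DDX39A genes and 1 of 4 DDX19A genes. DDX39A belongs to the UAP56 family that hands spliced mRNA to the export receptor, and DDX19A remodels mRNA at the nuclear pore. The DDX39A gene GSONMG00020229001 was at 80.0, 64.8 and 77.6 CPM in control, 143, 148 and 144 CPM with TNP-KLH and 442, 299.8 and 341 CPM with TNP-LPS. The groups did not overlap, with a log2 fold change of 2.28 (adjusted p = 2.43e-04, SE 0.22) for TNP-LPS and 1.32 (adjusted p = 0.025, SE 0.21) between the antigens. With TNP-KLH it was 0.97 (SE 0.21, adjusted p = 0.0663, or 0.0024 with the block). The other 3 DDX19A genes were under 10 CPM in every library, and their log2 fold changes of 0.25 to 1.62 did not pass.

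Splicing helicases moved in both directions. Of 22 genes 5 rose and 2 fell with TNP-LPS, 22.7% and 9.09% beside 10.04% and 6.73% of all genes. With the block 11 rose and 3 fell, and the 13.6% that fell lay near the 14.2% of all genes. Without the 3 libraries numbered 2 the counts were 3 and 1. With TNP-KLH 0 rose and 1 fell, where 4 and 2 had an unadjusted p under 0.05 and DESeq2 gave 2 and 1. DHX8, which releases spliced mRNA, rose in 1 of 3 copies, from 71.5, 69.3 and 69.9 CPM to 132, 110.4 and 126 CPM with TNP-LPS (GSONMG00066021001, log2 fold change 0.81, adjusted p = 0.0123, SE 0.18). A second DHX8 gene (GSONMG00009610001) was at 42.0, 51.6 and 48.9 CPM in control and 43.5, 53.1 and 46.0 CPM with TNP-LPS, which overlap. DDX46 (GSONMG00044988001), needed for the first stable binding of the U2 particle, was at 47.0, 54.5 and 54.1 CPM in control and 70.2, 82.7 and 75.6 CPM with TNP-LPS. Its log2 fold change of 0.55 (SE 0.18) missed the threshold (adjusted p = 0.0582) and passed with the block (0.0141).

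DHX15, which takes spent spliceosomes apart, was split between copies. Both genes GSONMG00070610001 and GSONMG00050553001 rose with TNP-LPS, and both genes GSONMG00000780001 and GSONMG00000781001, which have consecutive identifiers, fell. The rising and the falling genes share the DHX15 name but not the full description. GSONMG00070610001 was at 59.4, 67.3 and 53.7 CPM in control, 101, 119 and 107 CPM with TNP-KLH and 219, 197 and 176 CPM with TNP-LPS (log2 fold change for TNP-LPS 1.71, adjusted p = 4.55e-04, SE 0.20). GSONMG00000780001 was at 22.1, 32.0 and 24.9 CPM in control, 9.71, 12.7 and 11.7 CPM with TNP-KLH and 6.83, 10.03 and 9.10 CPM with TNP-LPS. Both stimulated groups lay below control and overlapped each other. Its log2 fold change was −1.60 (adjusted p = 0.00153, SE 0.24) for TNP-LPS and −1.21 (adjusted p = 0.0488, SE 0.23) for TNP-KLH, the 1 helicase that fell with TNP-KLH. The call with TNP-KLH was lost without any single library other than TNP-LPS replicate 1, with an adjusted p of up to 0.199. Of the summed CPM of the 4 DHX15 genes, the 2 rising copies held 70.6 to 77.7% in control, 89.3 to 92.3% with TNP-KLH and 94.9 to 97.4% with TNP-LPS. The 2 copies were grouped after their values were seen, so this share has no test.

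Transcription cofactors also moved in both directions. DDX5 and DDX17 are close relatives that assist transcription factors, splicing and the processing of microRNA precursors. Of 11 genes in the group 2 rose and 3 fell with TNP-LPS (3 and 7 with the block), 18.2% and 27.3% beside 10.04% and 6.73% of all genes. Without the 3 libraries numbered 2 the counts were 2 and 1. The 2 that rose were DDX5 genes and the 3 that fell were DDX17 genes.

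The DDX5 gene GSONMG00052587001 was at 315, 367 and 255 CPM in control, 888, 914 and 789 CPM with TNP-KLH and 1465, 1435 and 1335 CPM with TNP-LPS. The groups did not overlap. Its log2 fold change was 1.47 (adjusted p = 0.0259, SE 0.19) for TNP-KLH and 2.18 (adjusted p = 2.34e-04, SE 0.20) for TNP-LPS. Between the antigens it was 0.71 (SE 0.19, adjusted p = 0.0849, or 0.0137 with the block). The gene GSONMG00059059001 behaved alike, with mean levels of 290.4 ± 58.0, 749.9 ± 81.0 and 1251 ± 92.0 CPM (SD, n = 3).

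The other 3 DDX5 genes did not rise with TNP-LPS. GSONMG00070454001 was at 116, 189 and 119 CPM in control, 138, 221 and 176 CPM with TNP-KLH and 85.7, 109.7 and 109 CPM with TNP-LPS. TNP-LPS was below both other groups in every library, but control and TNP-KLH overlapped. Against TNP-KLH it differed by −0.81 on the log2 scale (SE 0.27, adjusted p = 0.157, or 0.00621 with the block). The pair with consecutive identifiers, GSONMG00029804001 and GSONMG00029805001, had log2 fold changes with TNP-LPS of −0.82 (SE 0.33, adjusted p = 0.123, or 0.00611 with the block) and −0.52 (SE 0.23, adjusted p = 0.163, or 0.0314 with the block). The 2 rising DDX5 copies held 65.7 to 71.6% of the summed DDX5 CPM in control, 81.3 to 85.9% with TNP-KLH and 92.5 to 94.3% with TNP-LPS, a grouping also made after the values were seen.

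The 5 DDX17 genes had negative log2 fold changes with both antigens. With TNP-LPS 3 passed, and all 5 did with the block. With TNP-KLH 0 passed, 3 did with the block and at an unadjusted p under 0.05, and DESeq2 called 2. GSONMG00062521001 was at 11.1, 8.78 and 9.65 CPM in control, 4.04, 3.28 and 4.03 CPM with TNP-KLH and 0.466, 1.37 and 1.58 CPM with TNP-LPS. The groups fell in separate steps, with a log2 fold change of −3.05 (adjusted p = 7.82e-04, SE 0.39) for TNP-LPS and −1.38 (SE 0.36, adjusted p = 0.116, or 0.00947 with the block) for TNP-KLH. GSONMG00043537001 went from 6.57, 5.22 and 2.72 CPM in control to 0, 0.317 and 0.650 CPM with TNP-LPS, which are 0, 3 and 7 reads (log2 fold change −3.74, adjusted p = 0.00724, SE 0.74). GSONMG00056815001 had the highest DDX17 counts and fell by less. It was at 36.7, 53.3 and 50.2 CPM in control, 25.7, 25.6 and 26.2 CPM with TNP-KLH and 19.7, 27.6 and 26.8 CPM with TNP-LPS. Here both antigens lay below control and overlapped each other, with log2 fold changes of −0.86 (SE 0.21, adjusted p = 0.102, or 0.00482 with the block) and −0.92 (adjusted p = 0.015, SE 0.21). Without the 3 libraries numbered 2, only GSONMG00062521001 passed among the DDX17 genes.

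**Figure D4:**
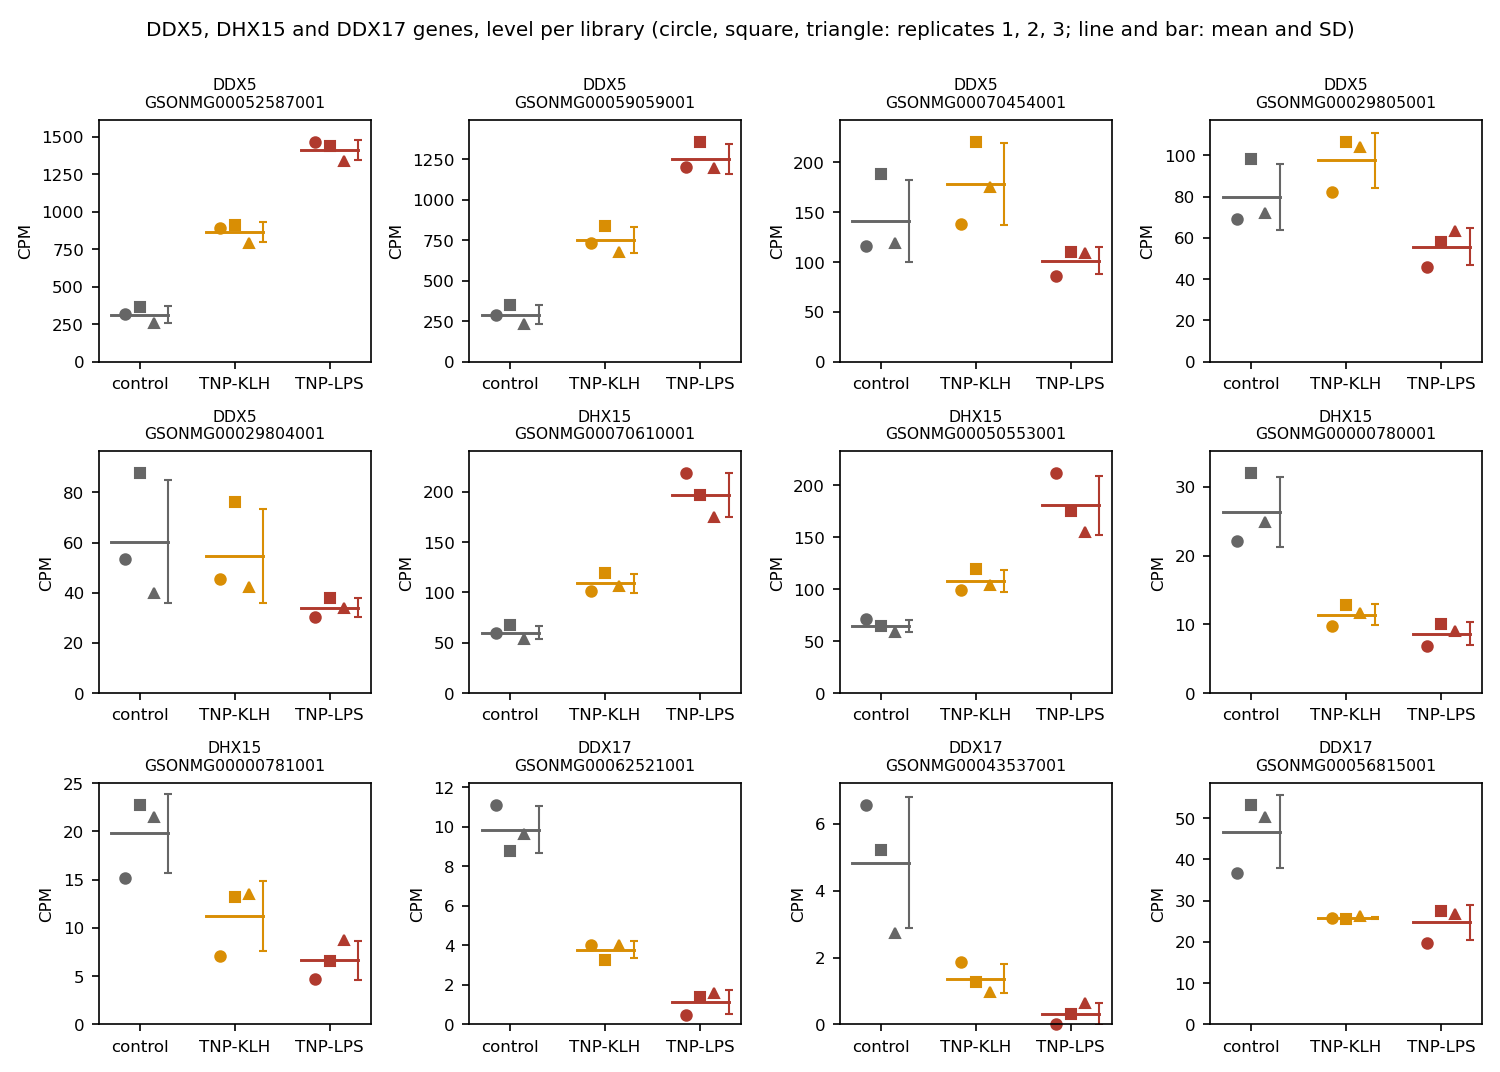
CPM per library of the 5 DDX5, the 4 DHX15 and 3 of the 5 DDX17 genes, with replicates 1, 2 and 3 as circles, squares and triangles, the mean of 3 as a line and the SD as a bar; each axis starts at 0. The first 2 DDX5 panels and the first 2 DHX15 panels rise from control to TNP-LPS, while the last 2 DHX15 panels and the 3 DDX17 panels fall.

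Among helicases of translation and mRNA decay, 3 of 14 genes rose with TNP-LPS (7 with the block, and 1 without the 3 libraries numbered 2) and 0 fell, with 0 lower also in DESeq2 and at an unadjusted p under 0.05. The 3 were 21.4% of the group, beside 10.04% of all genes. All 3 belong to the DDX3 family, whose members help the ribosome through structured leaders. The DDX3Y-like gene (GSONMG00030695001) was at 33.3, 23.1 and 35.2 CPM in control, 64.5, 59.8 and 76.7 CPM with TNP-KLH and 111, 100.1 and 96.4 CPM with TNP-LPS. The groups did not overlap, and the log2 fold changes were 1.13 (SE 0.22, adjusted p = 0.0501, or 8.33e-04 with the block) and 1.75 (adjusted p = 7.42e-04, SE 0.22). A DDX3X gene (GSONMG00000219001) rose by 0.84 (adjusted p = 0.0248, SE 0.22) and a PL10 gene (GSONMG00016755001) by 0.63 (adjusted p = 0.0489, SE 0.19). The DDX3X call was lost without TNP-LPS replicate 2 or 3 or control replicate 1 or 2 (adjusted p up to 0.0761), and the PL10 call without any 1 of the 9 libraries (adjusted p up to 0.132). The an3 gene (GSONMG00060255001), named after a frog gene of the same family, was filed among the remaining helicases and rose by 1.41 (adjusted p = 0.00247, SE 0.23).

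DDX6, which represses and helps to decap mRNA in P bodies, had 7 genes, of which 0 passed with TNP-LPS in edgeR without the block, although 2 had an unadjusted p under 0.05. With the block 2 were higher, and DESeq2 called 1. The DDX6 gene with the most reads (GSONMG00007928001) was at 71.3, 79.3 and 58.1 CPM in control, 96.3, 79.9 and 75.3 CPM with TNP-KLH and 82.6, 64.0 and 62.3 CPM with TNP-LPS, with the 3 groups overlapping. DHX34 (GSONMG00016189001), a factor of nonsense-mediated decay, had a log2 difference of −0.77 (SE 0.37) between TNP-LPS and TNP-KLH that passed only with the block (adjusted p = 0.37 without and 0.014 with it).

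DHX58, also called LGP2, tunes the detection of viral RNA by its relatives RIG-I and MDA5, and was the only gene in the sensing group. It was at 236, 100.002 and 179 CPM in control, 383, 265 and 452 CPM with TNP-KLH and 356, 181 and 214 CPM with TNP-LPS (GSONMG00027343001). Every TNP-KLH library lay above every control library, while TNP-LPS overlapped both groups. The log2 fold change was 1.09 (SE 0.37, adjusted p = 0.241, or 0.00185 with the block) for TNP-KLH and 0.54 (SE 0.37, adjusted p = 0.374, or 0.042 with the block) for TNP-LPS. The difference between the antigens was −0.55 (SE 0.37, adjusted p = 0.573, or 0.0701 with the block).

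DHX57, whose role is less well known, rose with both antigens. The gene (GSONMG00074257001) was at 16.4, 9.82 and 8.32 CPM in control, 35.6, 41.3 and 33.2 CPM with TNP-KLH and 38.2, 43.2 and 37.5 CPM with TNP-LPS. Both stimulated groups lay above control and overlapped each other. The log2 fold change was 1.67 (adjusted p = 0.0364, SE 0.26) for TNP-KLH and 1.78 (adjusted p = 0.00151, SE 0.26) for TNP-LPS. The difference between the antigens was 0.11 with an SE of 0.25 (adjusted p = 0.917), which leaves room for a difference of either sign.

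Of the 20 genes with other or unassigned roles, 3 rose with TNP-LPS (DHX57, an3 and 1 of 3 DDX1 genes) and 1 fell, beside 10.04% and 6.73% of all genes. With the block 4 rose and 2 fell, and without the 3 libraries numbered 2 the counts were 2 and 0. The one that fell was 1 of 3 genes described as RNA helicase A, the product of DHX9 in mammals, which assists transcription. This gene (GSONMG00058455001) was at 7.89, 10.4 and 9.57 CPM in control and 6.06, 4.65 and 4.92 CPM with TNP-LPS (log2 fold change −0.84, adjusted p = 0.0357, SE 0.24). The call was lost without any 1 of 7 libraries (all but control replicate 1 and TNP-LPS replicate 1), with an adjusted p of up to 0.119. The RNA helicase A gene with the most reads (GSONMG00079803001) was at 145, 171 and 114 CPM in control and 138, 171 and 140.0 CPM with TNP-LPS, with overlapping groups. DHX40 (GSONMG00079073001) followed the replicate number: it was at 210.5, 433 and 149.5 CPM in control, 239, 427 and 193 CPM with TNP-KLH and 114, 205 and 138 CPM with TNP-LPS, highest in replicate 2 of each group. Its log2 fold change with TNP-LPS was −0.80 (SE 0.44, adjusted p = 0.266, or 0.014 with the block).

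In the germ line group, DDX4 (vasa, a marker of germ cells) also varied by replicate number. The gene (GSONMG00030505001) was at 12.8, 20.7 and 2.96 CPM in control, 23.4, 55.6 and 7.74 CPM with TNP-KLH and 16.3, 47.8 and 10.1 CPM with TNP-LPS. The groups overlapped, but within each replicate number both antigens were above control. The log2 fold change of 1.26 (SE 0.84) for TNP-KLH had an adjusted p of 0.611 without the block and 0.00303 with it. TDRD9, which acts in the silencing of transposons in the germ line, was at or under 1.53 CPM in every library.

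Helicases outside the naming rule, which goes by description and not by protein family, were counted as a separate list of 48 genes. With TNP-LPS 19 rose and 1 fell, 39.6% and 2.08% beside 10.04% and 6.73% of all genes. Many of those that rose were eIF4A or Dicer entries, so the share is not one of many separate families. The Dicer genes GSONMG00008669001, GSONMG00015564001 and GSONMG00049748001 passed narrowly (adjusted p = 0.0411, 0.0435 and 0.0400). Their control means were 2.11, 1.36 and 2.18 CPM. With the block 23 rose and 5 fell, 47.9% and 10.4% beside 16.3% and 14.2% of all genes. Without the 3 libraries numbered 2 the counts were 6 and 0, where 5.50% and 2.39% of all genes passed. With TNP-KLH 1 rose (5 with the block), where 0.760% of all genes did (6.05% with the block). TNP-LPS exceeded TNP-KLH for 3 and lay below it for 1, beside 2.12% and 0.745% of all genes. With the block these were 15 and 5, beside 8.49% and 5.94%. A gene of the translation initiation helicase eIF4A-I (GSONMG00070300001) was at 149.9, 99.4 and 134 CPM in control, 352, 258 and 357 CPM with TNP-KLH and 642, 454 and 579 CPM with TNP-LPS. The groups did not overlap, with log2 fold changes of 1.33 (adjusted p = 0.0434, SE 0.24) and 2.13 (adjusted p = 4.91e-04, SE 0.25). A gene described as superkiller viralicidic activity 2-like 2 (GSONMG00070735001), the helicase of the nuclear exosome, rose by 1.83 (adjusted p = 4.00e-04, SE 0.20) with TNP-LPS. The 1 gene that fell, named here after its values were seen, was a mov-10 gene (GSONMG00071276001), whose mammalian relative restricts retroelements. It was at 115, 158 and 136 CPM in control, 135, 211 and 162 CPM with TNP-KLH and 77.2, 45.1 and 61.5 CPM with TNP-LPS (log2 fold change for TNP-LPS −1.15, adjusted p = 0.0153, SE 0.27). The call was lost without TNP-LPS replicate 2 (adjusted p = 0.0603) and without the 3 libraries numbered 2 (0.127). Further mov-10 genes of the list had log2 fold changes with TNP-LPS of −0.62 (GSONMG00010725001, SE 0.28, adjusted p = 0.172, or 0.0226 with the block) and −0.13 (GSONMG00080111001, SE 0.36, adjusted p = 0.857).

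Partners of helicases were examined as a mixed list of 57 G-patch proteins, translation initiation factors with their scaffold subunits, other partners and inhibitors. With TNP-LPS 24 rose and 1 fell, 42.1% and 1.75% beside 10.04% and 6.73% of all genes. With the block 32 and 2 did (16.3% and 14.2% of all genes), and in DESeq2 28 and 1 (12.1% and 9.06%). With TNP-KLH 2 rose and 0 fell, where 0.760% and 0.117% of all genes did. The counts were 15 and 2 with the block (6.05% and 4.23% of all genes) and 12 and 1 in DESeq2 (3.11% and 1.33%). At an unadjusted p under 0.05 they were 16 and 4 (6.90% and 5.70%). TNP-LPS exceeded TNP-KLH for 4 (21 with the block), where 2.12% of all genes were higher (8.49% with the block). It lay below TNP-KLH for 0, also in DESeq2 and at an unadjusted p under 0.05. Without the 3 libraries numbered 2, 16 rose and 0 fell with TNP-LPS, beside 5.50% and 2.39% of all genes. Among the G-patch proteins, only GSONMG00018404001, GSONMG00054508001 and GSONMG00057828001 rose with TNP-LPS without the block. Many of the others that rose were eIF4G1 or eIF4G2 entries, some with consecutive identifiers, so the share of the list is not one of G-patch proteins. The 5 with the smallest p were all eIF4G1 genes, which encode the scaffold that holds eIF4A on the mRNA cap complex, with log2 fold changes of 1.92 to 2.35 for TNP-LPS. The eIF4G1 gene GSONMG00040299001 was at 192, 151 and 178 CPM in control, 372, 362 and 366 CPM with TNP-KLH and 756, 620.2 and 614 CPM with TNP-LPS, in 3 separate ranges. The 1 partner that fell, again named after its values were seen, was a PDCD4-like gene (GSONMG00017883001), known in mammals as an inhibitor of eIF4A. It was at 20.2, 48.4 and 34.5 CPM in control, 8.62, 15.2 and 15.7 CPM with TNP-KLH and 5.75, 4.33 and 11.6 CPM with TNP-LPS. Control lay above both stimulated groups, with a log2 fold change of −2.24 (adjusted p = 0.00722, SE 0.44) for TNP-LPS and −1.38 (SE 0.43, adjusted p = 0.191, or 0.00336 with the block) for TNP-KLH. The call with TNP-LPS passed without each single library and was lost without the 3 libraries numbered 2 (adjusted p = 0.112). The other PDCD4-like genes of the list did not fall with TNP-LPS, with or without the block. Mean CPM in control and TNP-LPS cells was 35.08 and 33.83 for GSONMG00073795001, and 22.59 and 26.85 for GSONMG00014079001. On the log2 scale these changes were −0.05 (SE 0.25) and 0.25 (SE 0.36). The fall with TNP-LPS was therefore seen in 1 copy and not across the PDCD4-like genes. With TNP-KLH the other 2 copies also had negative log2 fold changes. They were −0.57 (SE 0.25, adjusted p = 0.378, or 0.038 with the block) for GSONMG00073795001 and −0.54 (SE 0.36, adjusted p = 0.619, or 0.059 with the block) for GSONMG00014079001.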

How the data were processed

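RNA of sorted IgM+ B cells was sequenced after total RNA library preparation with a strand-marking kit. The authors' processing notes name TopHat, SAMtools, HTSeq and DESeq, with versions, strand setting and the treatment of reads with several matches not given in the sources used here. Deposited values used were raw read counts per gene from HTSeq, made by the authors, which the 3 tables hold identically for the libraries they share. Their comparison columns hold DESeq means, fold changes and p-values and were not used. The label gives the antigen dose as 5 mg/ml, which differs in unit from the study's methods, so no dose is printed with the results.

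Genes with at least 5 reads in any library were kept (31691 of 46585). Counts were scaled by TMM (factors 0.797 to 1.10) and tested in edgeR 4.0.16 (R 4.3.3) by the quasi-likelihood F test with 1 factor of 3 groups and all 9 libraries, with Benjamini-Hochberg adjustment over all genes kept and a threshold of 0.05. The SE is the log2 fold change divided by the square root of F. CPM were computed on the TMM-scaled totals. The test was tried on simulated counts, which had less spread than these data and no effect of the replicate number. The trial is therefore no support for the calls made here. Totals had a median of 9237306 reads, and the common biological coefficient of variation was 0.446, so low genes are measured with little precision.

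Replicate numbers come from the sample titles. Deviations from the group means correlated at 0.303 to 0.749 between the 9 pairs of libraries with the same number and at −0.571 to 0.0429 between the other 18 pairs (24679 genes with a mean of at least 1 CPM), so the numbers pair the libraries, as read from the data. Counts with this number as a block are given beside most of those for TNP-LPS against control. For the large subunit, other nucleolar and mitochondrial groups the block gave the same counts of higher genes, 11, 5 and 4. The adjusted p with the block is given beside named genes whose printed call it changes. No 2 libraries of a group agreed within sampling noise (chi-square per gene 23.4 to 71.0).

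Alternatives were the block, RLE factors, DESeq2 1.42.0, only the 2 groups compared, no filter, a mean count of at least 10, each library left out, the 3 libraries numbered 2 left out and, chosen after seeing the data, the block without 1 replicate number. Named genes were up to 12 called members per direction and comparison by smallest p, every member called with TNP-KLH, up to 3 per role, all DDX27, DDX5, DDX17 and DHX58 members, and up to 5 genes per other list. Pairs of 1 description called in opposite directions were also to be named, but no pair met this rule. Other genes were named as further copies of these families, as the 1 gene of a list that fell, or as copies of that gene. The members and lists were chosen with earlier results of these data known. Identifiers of 0 members matched the RefSeq gene table, so no sequences or positions are printed.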

Additional observations from a re-analysis of the deposited data

How the results depend on the processing

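All counts are of helicases called higher and lower. For TNP-LPS against control, 44 were higher and 6 lower. The lower count was 12 with the replicate block, 11 with the block and without replicate 2, and 2 without the 3 libraries numbered 2. Leaving out 1 library gave 41 to 45 higher and 5 to 6 lower. For TNP-KLH against control, 10 higher and 1 lower became 32 and 5 with the replicate block, 25 and 3 in DESeq2, and 0 and 0 with only the 2 groups compared or without the 3 libraries numbered 2. The lower count was 0 with RLE factors and 0 without a filter. Leaving out 1 library gave 0 to 13 higher and 0 to 2 lower, beside 0 to 302 and 0 to 53 of all genes. With only the 2 groups compared, 0 of all genes were higher and 0 lower. For TNP-LPS against TNP-KLH, 14 higher and 0 lower became 37 and 7 with the replicate block, 30 and 3 in DESeq2, and 0 and 0 with only the 2 groups compared or without the 3 libraries numbered 2. A mean count of at least 10 gave 1 lower. Leaving out 1 library gave 0 to 14 higher and 0 lower, beside 0 to 576 and 0 to 272 of all genes. With only the 2 groups compared, 13 of all genes were higher and 32 lower. With the block and without replicate 1, 2 or 3, an alternative chosen after seeing the data, TNP-KLH against control had 28, 34 and 24 higher with 2, 5 and 1 lower, and TNP-LPS against TNP-KLH had 23, 39 and 22 higher with 3, 7 and 6 lower. No shares of all genes are given for this alternative, so its counts are not read as particular to helicases. Fewer libraries enter several of these fits, and otherwise the cause was not tested. Over 143 values of named genes and 2716 refits, 2102 stayed on the same side of the threshold with the same direction, 381 lost it, 233 gained it and 0 reversed.

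Calls that involve TNP-KLH changed with the design. Under these settings 0 called helicases changed sign, but the refits use the same counts and start from genes already called. The kept signs, here and among the refits above, are therefore no further support for the calls. Low genes, copies with shared reads and consecutive identifiers of one name limit what a count of members means, and the size of these effects was not tested. No gene lengths were used, so the sums of CPM, the shares held by copies and the rankings by reads are not corrected for length.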
